A study of Canis lupus familiaris with 15 samples.

Results

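The genes of glucose breakdown, glucose synthesis and the response to low oxygen were followed in primary osteosarcomas of 15 dogs. The list held 40 genes, out of 15115 genes named on the array, and each was taken as its brightest probeset that carries a single gene symbol, with all 3 probesets given for FBP1. A probeset is a group of short probes on the array that report on 1 transcript, and brightest means the highest mean log2 signal over the 15 arrays. Such a probeset was found for 39 of the 40 genes, and 38 were tested between cohorts. LDHB, a lactate dehydrogenase subunit, had only 2 probesets, both shared with other symbols, and was not measured here. GAPDH was measured by an array control and is given separately.

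Glycolysis splits glucose into pyruvate in a chain of cytosolic steps, and lactate dehydrogenase turns pyruvate into lactate when it is not burned in mitochondria. Gluconeogenesis runs the chain backwards and uses its own enzymes at the steps that glycolysis cannot reverse, among them fructose-1,6-bisphosphatase (FBP1) and phosphoenolpyruvate carboxykinase (PCK1, PCK2). When oxygen is low, prolyl hydroxylases such as EGLN3 no longer mark the transcription factors HIF1A and EPAS1 for breakdown, and these factors switch on glucose transporters, many glycolytic enzymes and secreted factors such as VEGFA. Because this control acts largely on the HIF protein, the mRNA of HIF1A does not report its activity.

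Tumors came from limb amputation, were snap frozen, and had not been exposed to chemotherapy, which each dog received afterwards as either doxorubicin or a platinum drug. The DFI < 100 cohort (8 dogs) had a disease free interval below 100 days, and the DFI > 300 cohort (7 dogs) one above 300 days. Ages had a low, median and high of 4.4, 8 and 10.8 years in DFI < 100 dogs and 7.1, 10.4 and 13.4 years in DFI > 300 dogs. By the study's pathology, 5 tumors were osteoblastic and 3 giant cell in DFI < 100 dogs, while 6 were osteoblastic and 1 poorly differentiated in DFI > 300 dogs. Greyhounds were 3 of 8 and 1 of 7 dogs, and mixed breed dogs 1 of 8 and 4 of 7. The remaining DFI < 100 dogs were a Rottweiler, a Labrador Retriever, a Doberman and a Golden Retriever. The remaining DFI > 300 dogs were a Golden Retriever and a Rottweiler. Cohort, age, breed and subtype therefore cannot be fully told apart. Each dog gave 1 array of bulk tumor RNA, in which fewer cells of a type and less RNA per cell cannot be told apart. The arrays had no count depth, and the number of dogs limits the precision.

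Values are log2 of the PLIER signal, PLIER being the method that joins the probes of a probeset into 1 number. Differences are DFI < 100 minus DFI > 300 on this scale, so 1 is a doubling of the signal. The 95th percentile of 64 reporter controls, probes for sequences foreign to the dog, lay at 6.79, and a probeset with a mean at or below it is called near background. Of the 42860 probesets tested, 14518 lay above it, and so did 26 of the 38 tested genes. Levels of different genes are not compared with each other, because probes differ in brightness. Summed signals of markers for 8 tissues and cell types, bone matrix among them, overlapped between the cohorts for every list. The sums are of linear signal, so the brightest markers of a list weigh most. For bone matrix markers, which define the tissue, the sum ran from 34204 to 61113 in DFI < 100 tumors and from 39732 to 49959 in DFI > 300 tumors.

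None of the 38 genes passed an adjusted p of 0.05 between the cohorts in limma, which 0% of all probesets passed, and their adjusted p lay between 0.999 and 1. At an unadjusted p under 0.05, 4 genes (10.5%) were counted, against 3.68% of all probesets. FBP1 and PGK1 had the higher mean in DFI < 100 tumors, where 1.83% of all probesets met that threshold, and ENO2 and EPAS1 the lower mean, where 1.85% did. FBP1 had been picked by the study from these same tumors and is not independent evidence of its direction. Leaving out dog 180223 left 1 such gene, FBP1, and leaving out dog 184844 gave 6. The count also fell to 2 without dogs 153599, 168327 or 188084.

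The mean was higher in DFI < 100 tumors for 28 of 38 genes (73.7%), against 50.9% of all probesets, and lower for 10. The median difference over the list was 0.15, against 0.0059 over all probesets tested. Among the 26 genes above the reporter level, 19 had the higher mean and the median difference was 0.13, against 7310 of 14518 and 0.0024 for all probesets above that level. Without FBP1 the count was 27 of 37 genes, with a median of 0.15. Genes of one pathway do not vary independently of each other, so these counts describe the list and carry no test.

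**Figure D1:**
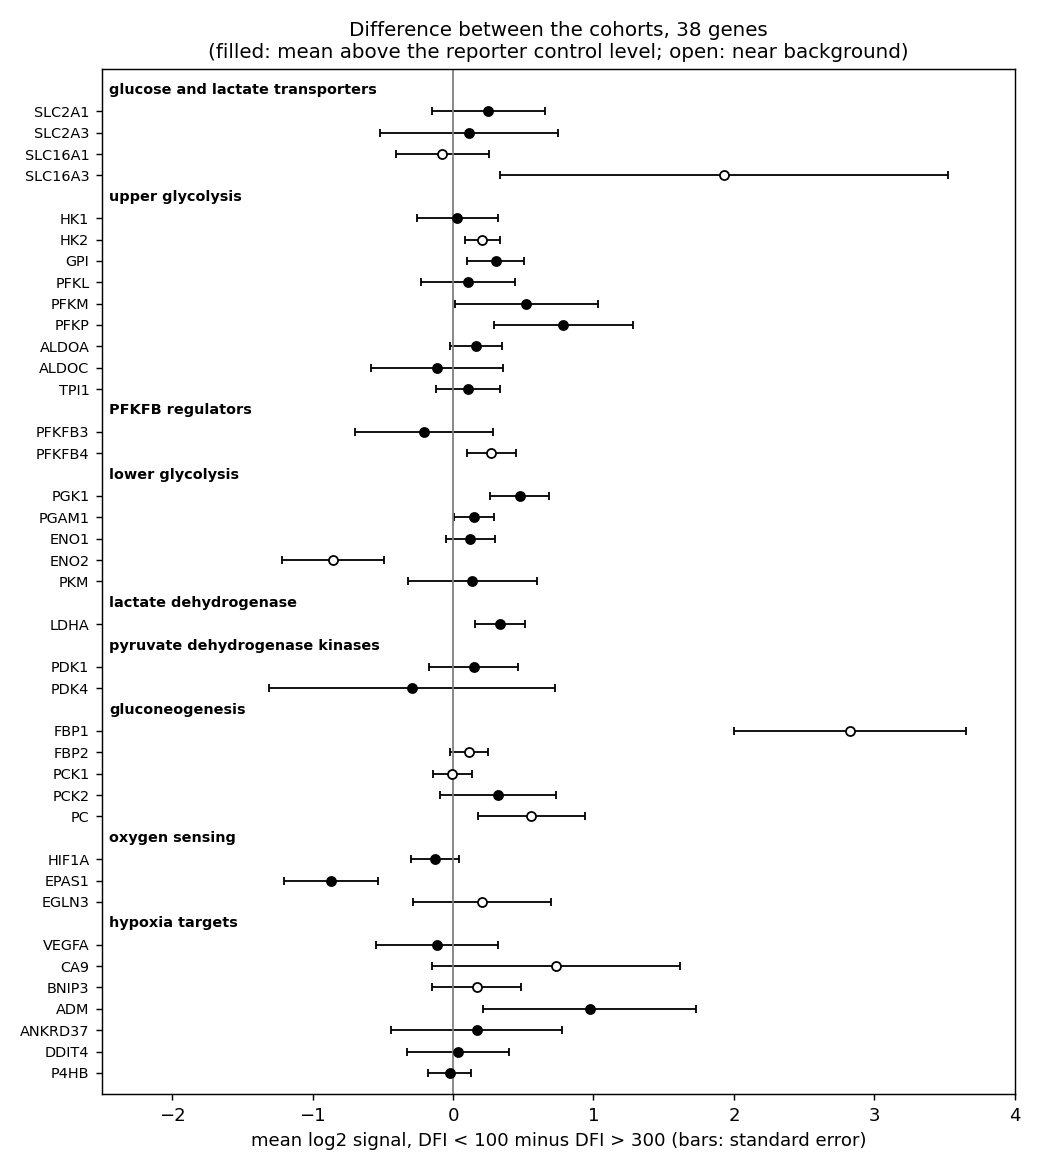
Difference in mean log2 signal, DFI < 100 minus DFI > 300 (x axis), for the 38 genes tested, listed by role (y axis), with the standard error of the limma fit as bars. Filled points lie above the reporter level on average and open points lie near background. Points lie right of 0 for 28 genes, and FBP1 (2.83) and SLC16A3 (1.93), both near background, lie farthest right, while EPAS1 (-0.87) and ENO2 (-0.86) lie farthest left.

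FBP1 encodes the liver-type fructose-1,6-bisphosphatase, which removes a phosphate from fructose-1,6-bisphosphate and so opposes phosphofructokinase. On its brightest probeset the log2 signal was 8.44 in dog 212759, 8.35 in dog 153599, 7.65 in dog 208911, 6.89 in dog 173175, 6.25 in dog 184844, 5.80 in dog 223986, 4.47 in dog 208756 and 4.33 in dog 204714 of the DFI < 100 cohort. In the DFI > 300 cohort it was 7.14 in dog 188084, 4.50 in dog 180119, 3.65 in dog 168327, 3.45 in dog 193231, 3.16 in dog 208513, 2.67 in dog 190030 and 1.28 in dog 180223. All 8 DFI < 100 tumors lay above the DFI > 300 median of 3.45, and 3 lay above every DFI > 300 tumor. The ranges overlapped through dog 188084, the poorly differentiated tumor, and through dogs 208756 and 204714.

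The mean of FBP1 was 6.52 ± 1.60 (SD, n = 8) in DFI < 100 tumors and 3.69 ± 1.81 (SD, n = 7) in DFI > 300 tumors, a difference of 2.83 with a standard error of 0.82 (limma, adjusted p = 0.999). Only 4 of 8 DFI < 100 tumors and 1 of 7 DFI > 300 tumors lay above the reporter level, so most values of FBP1 lay in the range of the reporter controls. The second probeset averaged 5.48 ± 0.99 in DFI < 100 tumors and 3.86 ± 0.90 in DFI > 300 tumors, a difference of 1.62 (SE 0.46). On the third, the means were 5.04 ± 1.53 and 3.13 ± 1.21 in DFI < 100 and DFI > 300 tumors, a difference of 1.91 (SE 0.68). With any 1 of the 15 dogs left out, the difference on the brightest probeset ran from 2.43 (without dog 180223) to 3.40 (without dog 188084), and all 3 probesets stayed at an unadjusted p under 0.05 in 15 of 15 such fits. The 3 probesets share their RNA and are not 3 replicates, and these fits reuse the tumors from which the study had picked FBP1.

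**Figure D2:**
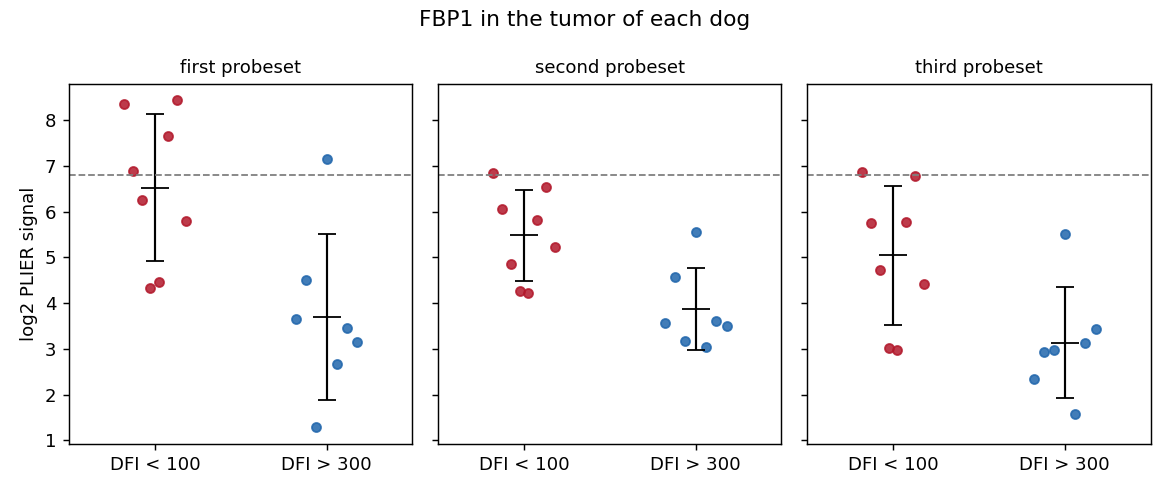
FBP1 log2 PLIER signal (y axis) in each tumor on its 3 probesets, with DFI < 100 left of DFI > 300 in each panel. Points are dogs, the bars give the mean and SD, and the dashed line is the reporter level of 6.79. On the first probeset 4 of 8 DFI < 100 tumors and 1 of 7 DFI > 300 tumors stand above the line.

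On their brightest probesets, the other genes of glucose synthesis had differences between -0.01 and 0.56. PCK2, the mitochondrial phosphoenolpyruvate carboxykinase, had a low, median and high of 6.27, 7.06 and 8.41 in DFI < 100 tumors and 5.78, 6.27 and 8.36 in DFI > 300 tumors. All 8 DFI < 100 tumors lay above the DFI > 300 median, 4 of 7 DFI > 300 tumors lay below every DFI < 100 tumor, and dogs 188084 (8.36) and 208513 (7.85) of the DFI > 300 cohort lay near the top. This split rests on a narrow gap, from the DFI > 300 median of 6.268 to the lowest DFI < 100 tumor at 6.273, both below the reporter level. Only 5 of 8 DFI < 100 and 3 of 7 DFI > 300 tumors lay above that level. How many of all probesets split in this way was not counted. The means were 7.11 ± 0.67 (SD, n = 8) in DFI < 100 tumors and 6.79 ± 1.01 (SD, n = 7) in DFI > 300 tumors, a difference of 0.32 (SE 0.42, limma adjusted p = 0.999). It was 0.14 without dog 208756 (DFI < 100) and 0.58 without dog 188084 (DFI > 300). PC, pyruvate carboxylase, which makes oxaloacetate for this route, averaged 6.21 ± 0.86 in DFI < 100 and 5.65 ± 0.66 in DFI > 300 tumors, near background. The muscle-type FBP2 (5.30 ± 0.20 in DFI < 100 and 5.19 ± 0.23 in DFI > 300 tumors) and the cytosolic PCK1 (5.92 ± 0.27 and 5.93 ± 0.18) also lay near background, with nearly equal means on these probesets. Their fainter probesets, also near background, differed by -3.12 (SE 2.09) for FBP2 and by 1.24 (SE 1.40) and 2.71 (SE 2.24) for PCK1. Summed skeletal muscle markers ran from 935 to 1769 in DFI < 100 and from 901 to 3155 in DFI > 300 tumors.

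Among the carriers of glucose and lactate, SLC2A1, the widespread glucose transporter GLUT1, had a low, median and high of 7.76, 9.14 and 10.2 in DFI < 100 tumors and 7.77, 8.68 and 10.5 in DFI > 300 tumors. The groups covered nearly the same range, and the single highest value belonged to dog 208513 of the DFI > 300 cohort. The difference in means was 0.25 (SE 0.40). SLC2A3, the high-affinity glucose transporter GLUT3, was spread more widely between dogs, with 8.31, 8.92 and 11.31 in DFI < 100 tumors and 6.70, 9.22 and 10.97 in DFI > 300 tumors. Dog 223986 (DFI < 100) was highest and dog 193231 (DFI > 300) lowest, and the cohort means of 9.38 ± 1.10 and 9.26 ± 1.51 differed by 0.12 (SE 0.63, limma adjusted p = 0.999).

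The lactate exporter SLC16A3 (MCT4) had the second largest difference of the list, and it came from 1 array. Its low, median and high were 3.51, 6.67 and 7.95 in DFI < 100 tumors and -5.91, 6.39 and 7.35 in DFI > 300 tumors, so that the medians were close. Dog 193231 stood at -5.91, a PLIER signal of 0.0167, and the next lowest DFI > 300 tumor at 4.45. The difference in means was 1.93 (SE 1.60) with this dog and 0.20 (SE 0.59) without it. SLC16A1 (MCT1), the related carrier for lactate and pyruvate, lay near background at 5.50 ± 0.67 in DFI < 100 and 5.58 ± 0.66 in DFI > 300 tumors.

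In upper glycolysis, where glucose is phosphorylated and cleaved, 8 of 9 genes had the higher mean in DFI < 100 tumors and the median difference was 0.16, with 0 of 9 at an unadjusted p under 0.05. PFKP, the platelet form of phosphofructokinase, varied most, with a low, median and high of 6.68, 8.69 and 9.79 in DFI < 100 tumors and 5.67, 7.84 and 8.88 in DFI > 300 tumors. Tumors of dogs 223986, 173175 and 204714 (DFI < 100) lay above every DFI > 300 tumor, while dog 184844 of the same cohort was second lowest of all and dog 193231 (DFI > 300) lowest. The means were 8.44 ± 0.99 (SD, n = 8) in DFI < 100 tumors and 7.65 ± 1.04 (SD, n = 7) in DFI > 300 tumors, a difference of 0.79 (SE 0.50, limma adjusted p = 0.999). The muscle form PFKM differed by 0.52 (SE 0.51), and by 0.0893 without dog 190030 of the DFI > 300 cohort, which stood lowest at 5.04. The liver form PFKL differed by 0.11 (SE 0.33).

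Hexokinases trap glucose in the cell. HK2, the inducible form, had 5.18, 5.44 and 5.74 in DFI < 100 tumors and 4.97, 5.21 and 5.51 in DFI > 300 tumors, all below the reporter level. Its means of 5.45 ± 0.18 and 5.24 ± 0.21 differed by 0.21 (SE 0.13, limma adjusted p = 0.999), and 7 of 8 DFI < 100 tumors lay above the DFI > 300 median. HK1, the widespread form, averaged 7.39 ± 0.66 in DFI < 100 and 7.36 ± 0.45 in DFI > 300 tumors. GPI, which converts glucose-6-phosphate to fructose-6-phosphate, averaged 11.7 ± 0.43 and 11.4 ± 0.32 in DFI < 100 and DFI > 300 tumors, a difference of 0.30 (SE 0.20). Differences were 0.16 (SE 0.19) for aldolase ALDOA, -0.11 (SE 0.47) for its brain form ALDOC and 0.11 (SE 0.23) for the triose phosphate isomerase TPI1.

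The enzymes PFKFB3 and PFKFB4 make and remove fructose-2,6-bisphosphate, an activator of phosphofructokinase and inhibitor of FBP1. PFKFB3 had 7.36, 8.94 and 9.62 in DFI < 100 tumors and 7.29, 8.73 and 10.8 in DFI > 300 tumors. Here the DFI > 300 cohort held both ends, with dogs 180119 (10.8) and 190030 (10.2) above every DFI < 100 tumor and dog 208513 lowest of all, and the means differed by -0.21 (SE 0.49). PFKFB4 lay near background with 4.17, 4.75 and 5.07 in DFI < 100 and 4.05, 4.51 and 4.87 in DFI > 300 tumors, a difference of 0.27 (SE 0.17).

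In lower glycolysis, which yields ATP and pyruvate, PGK1, phosphoglycerate kinase, had a low, median and high of 11.1, 11.9 and 12.4 in DFI < 100 tumors and 10.9, 11.4 and 11.9 in DFI > 300 tumors. Dogs 153599, 208756, 223986 and 208911 lay above every DFI > 300 tumor, and the highest DFI > 300 tumor, dog 180119 at 11.89, lay just below the DFI < 100 median of 11.91. The means were 11.86 ± 0.47 (SD, n = 8) in DFI < 100 tumors and 11.39 ± 0.30 (SD, n = 7) in DFI > 300 tumors, a difference of 0.48 (SE 0.21, limma adjusted p = 0.999), which ran from 0.40 to 0.58 with 1 dog left out and stayed at an unadjusted p under 0.05 in 6 of 15 such fits. LDHA, the subunit of lactate dehydrogenase that is common in glycolytic tissue, had 12.03, 12.64 and 13.17 in DFI < 100 tumors and 11.76, 12.41 and 12.74 in DFI > 300 tumors. Dogs 223986 and 184844 were highest, 7 of 8 DFI < 100 tumors lay above the DFI > 300 median, and the difference was 0.33 (SE 0.18, limma adjusted p = 0.999), with 0.39 on its second probeset.

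ENO2, the neuronal form of enolase, had the lower mean in DFI < 100 tumors. Its low, median and high were 4.94, 5.98 and 7.13 in DFI < 100 tumors and 5.67, 7.00 and 7.93 in DFI > 300 tumors. Dogs 188084, 180223 and 168327 of the DFI > 300 cohort lay above every DFI < 100 tumor, and 7 of 8 DFI < 100 tumors lay below the DFI > 300 median. The means of 6.03 ± 0.73 (SD, n = 8) and 6.88 ± 0.74 (SD, n = 7) differed by -0.86 (SE 0.36, limma adjusted p = 0.999), and its other probesets gave -1.60 and -1.03, all near background on average. The brightest probeset stayed at an unadjusted p under 0.05 in 8 of 15 fits with 1 dog left out. The common form ENO1 differed by 0.12 (SE 0.18).

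PKM, the pyruvate kinase of most tissues, had 7.17, 8.84 and 10.55 in DFI < 100 tumors and 7.76, 8.76 and 9.75 in DFI > 300 tumors. Both ends belonged to the DFI < 100 cohort, with dog 173175 highest and dog 184844 lowest, and the means differed by 0.14 (SE 0.46). PGAM1, phosphoglycerate mutase, averaged 12.81 ± 0.20 in DFI < 100 and 12.66 ± 0.28 in DFI > 300 tumors. On the 3 prime control probeset of GAPDH, the dehydrogenase often used as a reference gene, the low, median and high were 12.54, 13.03 and 13.31 in DFI < 100 tumors and 12.83, 12.98 and 13.31 in DFI > 300 tumors. The means of 13.03 ± 0.25 and 13.04 ± 0.17 differed by -0.01 (2-sided exact permutation over 6435 splits of the dogs, p = 0.934). The signal of the 3 prime minus that of the 5 prime probeset, which grows as RNA degrades, was 1.2 ± 0.38 in DFI < 100 and 1.17 ± 0.24 in DFI > 300 tumors (exact permutation p = 0.881), and was widest in dog 204714 at 2.02.

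**Figure D3:**
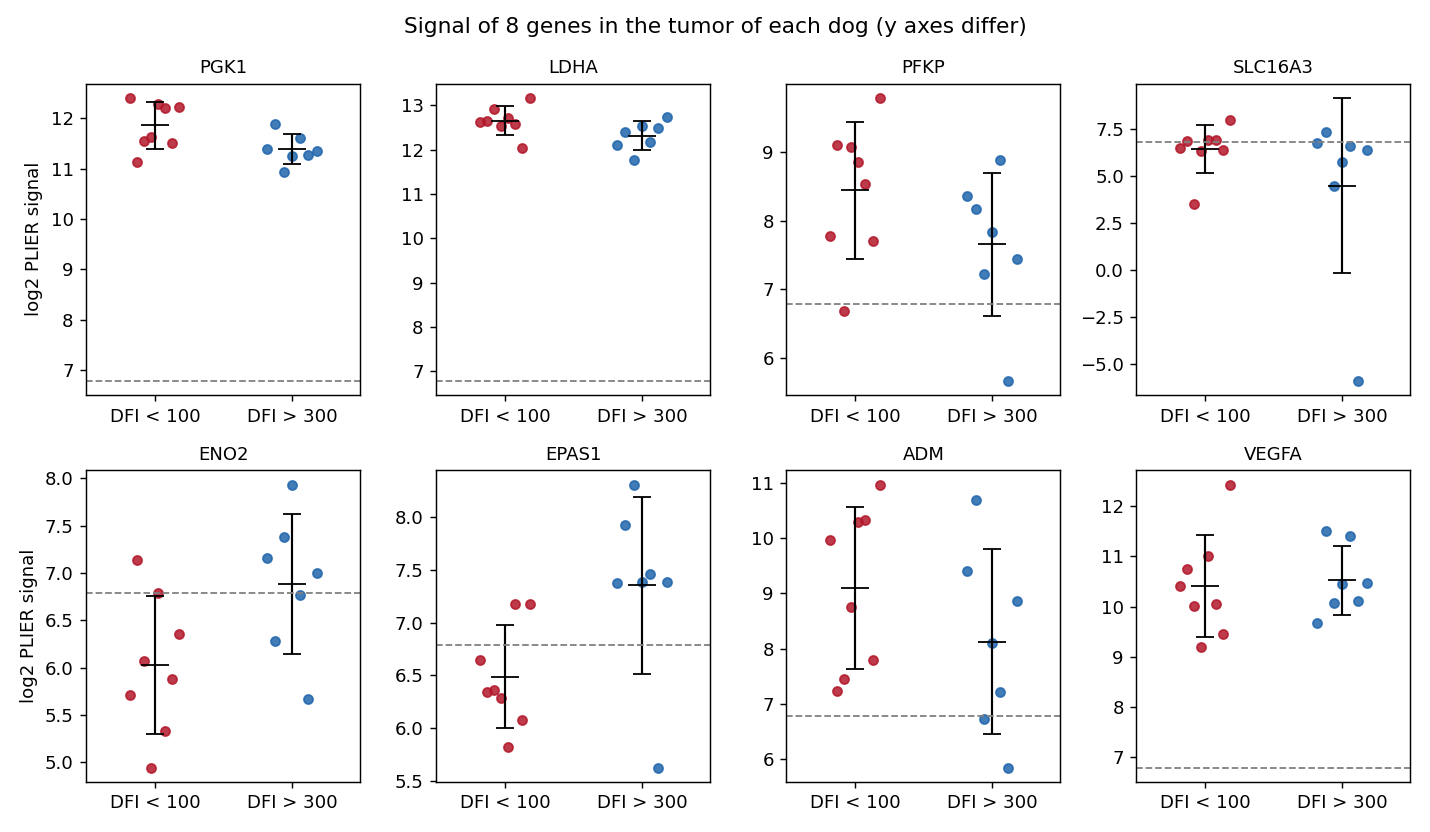
Log2 PLIER signal (y axis, scaled to each gene) of 8 genes in each tumor, DFI < 100 left of DFI > 300. Points are dogs, bars give the mean and SD, and the dashed line marks the reporter level of 6.79. Dog 193231 stands alone at -5.91 for SLC16A3 and at 5.62 for EPAS1, where the other 6 DFI > 300 tumors lie above all 8 DFI < 100 tumors. That separation follows in part from setting aside the dog with the contrary EPAS1 value, and how many of all probesets would separate so was not counted. A second EPAS1 probeset, near background and not shown, differed by -0.12 (SE 0.25).

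The pyruvate dehydrogenase kinases hold pyruvate back from being burned in mitochondria. PDK1, a known HIF1A target, had 9.54, 10.69 and 11.17 in DFI < 100 tumors and 9.31, 10.51 and 11.34 in DFI > 300 tumors, and the means of 10.50 ± 0.56 and 10.35 ± 0.71 differed by 0.15 (SE 0.32). PDK4, which responds to fasting and fatty acids, was the most variable gene of the list above the reporter level, with an SD over all dogs of 2.04, against a median SD of 0.51 for all probesets above that level. However, its mean of 6.82 lay barely above that level of 6.79. Only 3 of 8 DFI < 100 and 2 of 7 DFI > 300 tumors exceeded the level, so most values of PDK4 lay in the range of the reporter controls. PDK4 had 3.71, 6.03 and 9.35 in DFI < 100 tumors and 4.33, 6.27 and 11.1 in DFI > 300 tumors. Dogs 208911, 212759 and 223986 (DFI < 100) and 180119 and 168327 (DFI > 300) were high, and the means differed by -0.29 (SE 1.02). Without dog 180119 the difference was 0.40, and without dog 193231 it was -0.73.

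Of the genes of oxygen sensing, HIF1A had close means of 11.84 ± 0.28 in DFI < 100 and 11.97 ± 0.33 in DFI > 300 tumors (difference -0.13, SE 0.17). EPAS1, also called HIF-2 alpha and prominent in blood vessel cells, had 7.18 in dogs 208911 and 223986, 6.65 in dog 153599, 6.36 in dog 184844, 6.34 in dog 173175, 6.29 in dog 204714, 6.08 in dog 212759 and 5.82 in dog 208756 of the DFI < 100 cohort. In the DFI > 300 cohort it had 8.31 in dog 180223, 7.93 in dog 180119, 7.46 in dog 190030, 7.39 in dogs 188084 and 208513, 7.38 in dog 168327 and 5.62 in dog 193231. The first 6 DFI > 300 tumors lay above every DFI < 100 tumor, and dog 193231 lay below all of them.

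The means of EPAS1 were 6.49 ± 0.49 (SD, n = 8) in DFI < 100 tumors and 7.36 ± 0.84 (SD, n = 7) in DFI > 300 tumors, a difference of -0.87 (SE 0.34, limma adjusted p = 0.999). Without dog 193231, chosen for its contrary EPAS1 value, the difference was -1.16 (SE 0.24, limma adjusted p = 0.951). The groups then did not overlap, which follows in part from that choice. How many of all probesets would separate after such a choice was not counted. With 1 dog left out, EPAS1 stayed at an unadjusted p under 0.05 in 14 of 15 fits. Above the reporter level were 2 of 8 DFI < 100 tumors and 6 of 7 DFI > 300 tumors. A second EPAS1 probeset, near background, differed by -0.12 (SE 0.25). Of 10 endothelial markers, 3 had the higher and 7 the lower mean in DFI < 100 tumors, 0 reached an unadjusted p under 0.05, and their summed signal ran from 1237 to 7697 in DFI < 100 and from 1051 to 3235 in DFI > 300 tumors. Their part in the EPAS1 difference was not tested. EGLN3, an oxygen-sensing hydroxylase that HIF itself induces, lay near background at 5.22 ± 1.08 and 5.01 ± 0.92 in DFI < 100 and DFI > 300 tumors.

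Among the hypoxia targets, 5 of 7 had the higher mean in DFI < 100 tumors, none at an unadjusted p under 0.05. ADM, adrenomedullin, a secreted vessel-widening peptide, had 7.24, 9.35 and 10.97 in DFI < 100 tumors and 5.85, 8.10 and 10.69 in DFI > 300 tumors. Dogs 223986, 208911, 208756 and 153599 (DFI < 100) and 180119 (DFI > 300) were high, and dogs 193231 and 180223 (DFI > 300) lowest. The means of 9.10 ± 1.47 (SD, n = 8) and 8.12 ± 1.67 (SD, n = 7) differed by 0.97 (SE 0.76, limma adjusted p = 0.999). VEGFA, the main growth factor of blood vessels, had 9.18, 10.23 and 12.44 in DFI < 100 tumors and 9.66, 10.45 and 11.51 in DFI > 300 tumors. Dog 223986 stood highest and dog 204714 lowest, both DFI < 100, and the difference was -0.11 (SE 0.43).

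CA9, a carbonic anhydrase at the cell surface that is widely used as a hypoxia marker, split the dogs into high and low tumors in both cohorts. It stood at 9.24 in dog 208756, 8.93 in dog 173175 and 8.12 in dog 223986 of the DFI < 100 cohort, and at 7.94 in dog 208513 and 7.91 in dog 168327 of the DFI > 300 cohort. The other 10 tumors lay between 4.61 and 5.07, below the reporter level. The difference in means was 0.74 (SE 0.88). Dog 173175, high in CA9, had the lowest ADM of its cohort at 7.24, and dog 180119, high in ADM at 10.69, had CA9 at 4.79. ANKRD37, an ankyrin repeat gene induced by HIF, differed by 0.17 (SE 0.61), DDIT4, an inhibitor of the growth kinase mTORC1, by 0.03 (SE 0.36), and P4HB, a collagen prolyl hydroxylase subunit, by -0.02 (SE 0.15). BNIP3, which takes part in the removal of mitochondria, lay near background at 2.88 ± 0.62 in DFI < 100 and 2.72 ± 0.66 in DFI > 300 tumors.

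The tumors were also described dog by dog. For each dog the deviation from the mean of all 15 dogs was averaged over the 5 hypoxia targets above the reporter level. It was highest in dog 180119 (1.23, DFI > 300), dog 223986 (1.21, DFI < 100) and dog 208756 (0.98, DFI < 100), and lowest in dog 193231 (-1.09, DFI > 300) and dog 184844 (-0.75, DFI < 100). Over 13 glycolysis genes above that level, the highest means belonged to dogs 208756 (0.52, with 13 of 13 genes above the mean), 223986 (0.51) and 173175 (0.40), all DFI < 100. The lowest belonged to dog 184844 (-0.56, DFI < 100) and dog 193231 (-0.55, DFI > 300).

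Of the 26 genes, 8 were highest in dog 223986, while dogs 184844 and 193231 were each lowest for 6 and dog 180223 for 5. Dog 173175 was high in glycolysis genes and had a low mean over the 5 hypoxia targets (-0.56), although 2 of these 5 lay above their mean. CA9, not among the 5 because it lay near background on average, was second highest of all dogs in dog 173175, at 8.93. Dog 180119 had the largest summed macrophage markers, at 21388, against 2312 to 9005 in DFI < 100 tumors and a low of 2195 in the DFI > 300 cohort. Dogs 184844 and 193231 had the lowest GAPDH 3 prime signals, at 12.54 and 12.83. Whether these values had a part in the dogs' profiles was not tested.

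**Figure D4:**
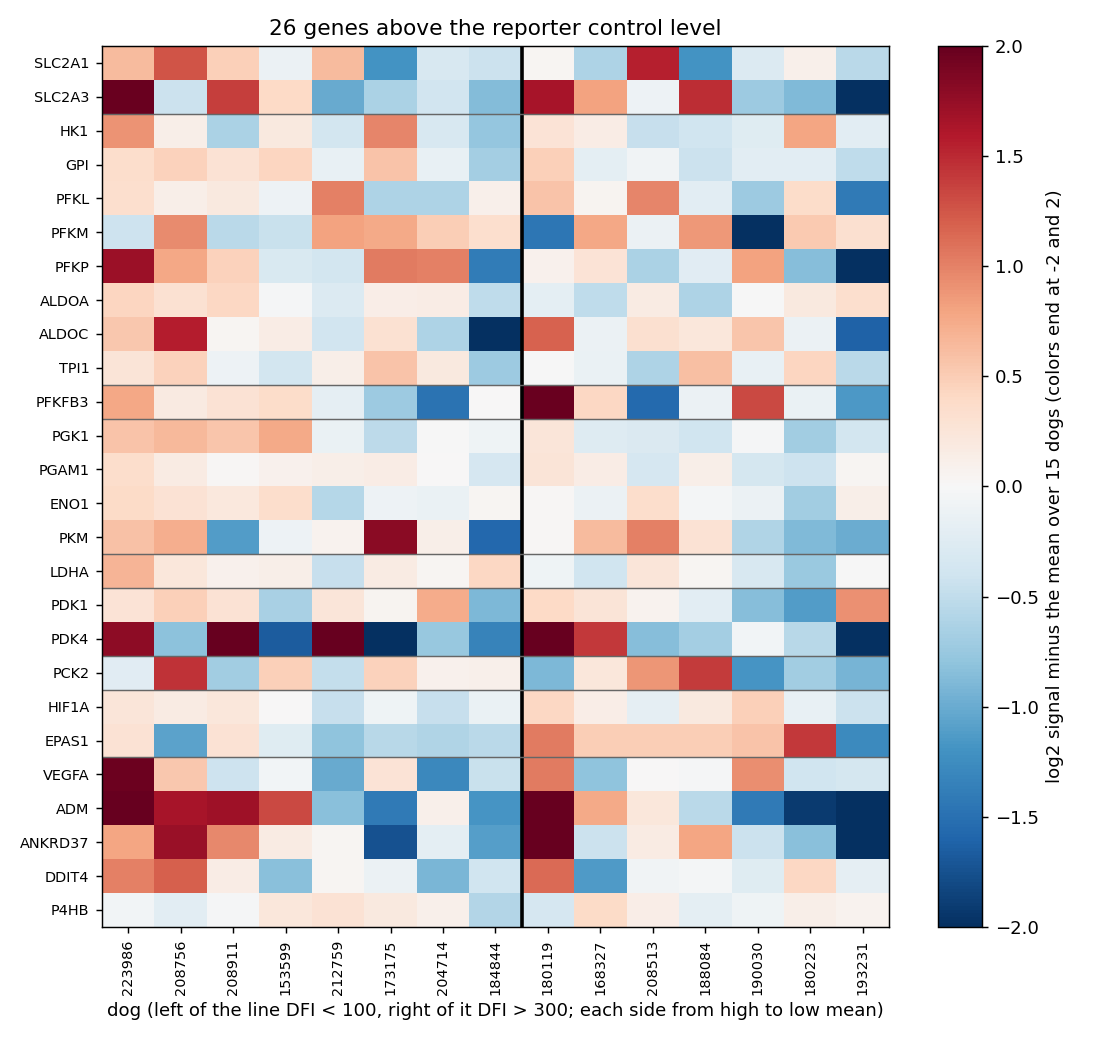
Log2 signal of the 26 tested genes above the reporter level (rows, by role), shown as deviation from the gene's mean over 15 dogs (red above, blue below, colors ending at -2 and 2). Columns are dogs, DFI < 100 left of the line and DFI > 300 right of it, each side ordered by its mean deviation. Most genes above their mean are in dogs 223986 (23), 208756 (22) and 208911 (19), all DFI < 100, and 180119 (20, DFI > 300). Fewest are in dogs 184844 (DFI < 100), 190030 and 193231 (both DFI > 300), with 6 each.

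Across the 15 tumors, 17 pairs of genes linked by pathway step or known control were compared, out of 18 listed, since LDHB had no value. Only HIF1A and VEGFA passed the adjusted threshold, with Pearson r = 0.71 (permutation p = 0.0025, Benjamini-Hochberg adjusted p = 0.0425) and Spearman rho = 0.69 (permutation p = 0.00573, adjusted p = 0.0974). Within the cohorts r was 0.77 in DFI < 100 tumors and 0.70 in DFI > 300 tumors. Without dogs 204714 and 212759, which lay farthest from the median of HIF1A, r was 0.57 in the other 13 tumors (permutation p = 0.0431, adjusted p = 0.495). With 1 dog left out at a time, r ran from 0.65 to 0.77, and the adjusted p stayed under 0.05 only when the dog left out was 168327, 188084, 208911 or 223986. It was above 0.05 without any 1 of the other 11 dogs, up to 0.206 without dog 204714, so the call is close to the threshold and is lost in most of these fits. Dog 204714 had the lowest signal of all 15 dogs for both genes (HIF1A 11.45, VEGFA 9.18) and the widest gap between the GAPDH 3 prime and 5 prime signals (2.02). The part of RNA quality in the correlation was not tested.

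The other pairs had r between -0.18 (GAPDH and ENO1) and 0.51 (CA9 and EGLN3), with adjusted permutation p of 0.264 or above. For VEGFA, r was 0.40 with ADM, 0.34 with CA9 and 0.19 with SLC2A1 (adjusted permutation p of 0.332, 0.332 and 0.556). PGK1 and LDHA, both known HIF1A targets, had r = 0.49 (adjusted permutation p = 0.264).

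**Figure D5:**
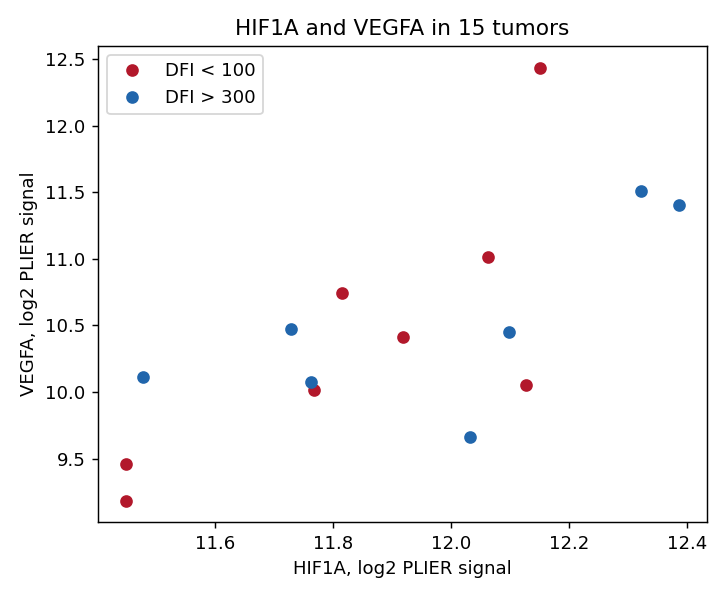
VEGFA (y axis) against HIF1A (x axis), both in log2 PLIER signal, in the 15 tumors, 1 point per dog, colored by cohort. The points of both cohorts run upward together (r = 0.71), and dog 223986 of the DFI < 100 cohort has the highest VEGFA signal at 12.44.

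Other genes of the same pathways gave no adjusted p under 0.05 either. Of 17 measured genes from a list of further glycolysis and gluconeogenesis genes, 8 had the higher and 9 the lower mean in DFI < 100 tumors, and ADPGK, a glucokinase that uses ADP, had the smallest p with a difference of -0.36 (SE 0.29). Of 19 genes for pyruvate use and transport, 13 were higher and 6 lower in mean, and PDHB, a subunit of pyruvate dehydrogenase, differed by 0.51 (SE 0.21) and was the 1 gene of the list at an unadjusted p under 0.05. The pentose phosphate pathway had 4 of 5 genes with the higher mean, with TKT, transketolase, at 0.64 (SE 0.40). Of 32 further hypoxia genes, 18 were higher and 14 lower in mean, with CCNG2, a cyclin that slows the cell cycle, at -0.78 (SE 0.38). The median difference of the further glycolysis genes was -0.03, against 0.15 for the 15 tested enzymes from hexokinase to lactate dehydrogenase, of which 13 had the higher mean. However, 11 of the 17 further genes lay near background, among them ADPGK and all 9 with the lower mean, against 2 of the 15 enzymes. The 6 further genes above the reporter level all had the higher mean in DFI < 100 tumors, by 0.06 (PGM1) to 0.38 (ENO3). None of these 6 reached an unadjusted p under 0.05, and the difference between the lists was not tested.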

How the data were processed

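RNA of 15 primary canine osteosarcomas was labeled and hybridized to Affymetrix Canine 2.0 arrays, 1 per dog. The authors summarized the probes with PLIER in Affymetrix Expression Console, and the deposited values are intensities, 1 linear signal per probeset and array. The arrays were hybridized in more than 1 batch. The batch of each array, the normalization before PLIER and the software versions were not given in the sources used here. No within-batch value could therefore be had.

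Of 43035 probesets, 175 controls were left out. The remaining signals were log2 transformed without an offset. A linear model was fitted for the 2 cohorts with limma 3.58.1 under R 4.3.3 (lmFit, eBayes, 2-sided, no covariate), with Benjamini-Hochberg adjustment over 42860 probesets. Symbols came from the platform annotation, which named 29254 of these with 1 symbol, 439 with several and 13167 with none. GAPDH was compared by an exact permutation test, since its brightest probeset is a control. Correlations used 100000 permutations (numpy 2.4.6), adjusted over 17 pairs. The steps were tested on simulated data. Each dog was 1 replicate, and p-values measure the spread between these dogs. The median signal of an array lay between 46.64 and 54.7.

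The members and all gene lists were chosen with earlier results of these data known. All members are named. Given in full were FBP1 and, in each role, the gene with the smallest p and the one with the largest SD among those above the reporter level. Of each further pathway list, the gene with the smallest p is named. PGK1, CA9 and the other genes given by dog were added after their values were seen. Subtype came from the study's description of the dogs. Alternatives in the samples were each dog left out, Greyhounds left out, and the osteoblastic tumors alone. Alternatives in the values were 16 added before log2, quantile normalization, the mean of a gene's probesets, and a filter at the reporter level. Alternatives in the model were the methods' t-test, limma with trend and robust options, and an age covariate.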

Additional observations from a re-analysis of the deposited data

Results flagged for a closer look

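In 3 of 82 sets of values, 1 cohort's values for 1 gene in each, the lowest dog stood far from the rest of its cohort by Dixon's criterion, which chance meets in about 1 of 20 sets. For SLC16A3, dog 184844 lay at 3.51 in the DFI < 100 cohort, where the next lowest tumor had 6.29. In the DFI > 300 cohort, dog 193231 lay at -5.91 for the same gene, against 4.45 in the next lowest tumor. For EPAS1, dog 193231 lay at 5.62 in the DFI > 300 cohort, against 7.38 in the next lowest tumor. The same dogs, 184844 and 193231, also had the lowest means over the glycolysis genes. No cause was tested.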

How the results depend on the processing

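The adjusted count of genes between cohorts was 0 under all 24 settings, with a lowest adjusted p of 0.951. Of 38 genes, 19 kept their sign throughout. The unadjusted count of 4 genes became 2 with only probesets above the reporter level (EPAS1, PGK1), 2 without Greyhounds (FBP1, GPI), 3 in osteoblastic tumors only (EPAS1, FBP1, PC), 3 with the mean of all probesets (ENO2, FBP1, PGK1) and 1 to 6 with 1 dog left out. Higher means ran from 25 to 33 genes, and the median difference from 0.09 to 0.25, with 1 dog left out. Most turned signs concern differences below their standard error, and the cause was not tested.

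With age as a covariate, differences were -0.29 for SLC2A3, -0.0371 for PFKL, 0.12 for ALDOC, 0.0737 for PFKFB3, -0.18 for PKM, 0.0496 for PDK4, 0.15 for PCK1, -0.019 for PCK2, -0.26 for EGLN3, -0.18 for CA9 and 0.0105 for P4HB. Without Greyhounds they were -0.0073 for SLC2A3, 0.32 for ALDOC, 0.10 for PCK1 and 0.10 for P4HB. In osteoblastic tumors only they were 0.23 for SLC16A1, 0.0459 for PCK1 and 0.19 for VEGFA. The mean of all probesets gave -1.50 for FBP2, 1.32 for PCK1 and 0.0374 for VEGFA, and quantile normalization 0.0152 for PCK1.

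With 1 dog left out, differences ran from -0.31 to 0.40 (SLC2A3), -0.26 to 0.0441 (SLC16A1), -0.11 to 0.16 (HK1), -0.12 to 0.28 (PFKL), -0.39 to 0.17 (ALDOC), -0.48 to 0.10 (PFKFB3), -0.11 to 0.37 (PKM), -0.0271 to 0.31 (PDK1), -0.73 to 0.40 (PDK4), -0.0731 to 0.0565 (PCK1), -0.021 to 0.44 (EGLN3), -0.40 to 0.0633 (VEGFA), -0.0391 to 0.28 (BNIP3), -0.18 to 0.56 (ANKRD37), -0.15 to 0.23 (DDIT4) and -0.0799 to 0.0608 (P4HB).

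The count of pairs past the adjusted threshold, 1, became 0 with the mean of all probesets, 0 without Greyhounds, 0 without the 2 farthest dogs, and 0 to 1 with 1 dog left out. Correlations that turned sign were -0.0125 (VEGFA and SLC2A1) and -0.17 (ALDOA and TPI1) without Greyhounds, and 0.0626 (GAPDH and ENO1) without the 2 farthest dogs. With 1 dog left out, r ran from -0.14 to 0.34 (ALDOA and TPI1), -0.34 to 0.0519 (GAPDH and ENO1) and -0.0465 to 0.37 (PGK1 and PDK1). No paired analysis was possible because the cohorts hold different dogs and share no replicate number.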

Other observations

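Over all 88 probesets with a single symbol that belong to the listed genes and are no controls, 62 had the higher and 26 the lower mean in DFI < 100 tumors, 41 lay near background, and 0 passed an adjusted p of 0.05 in limma. At an unadjusted p under 0.05, 5 of 88 had the higher and 3 of 88 the lower mean, against 1.83% and 1.85% of all probesets. They belong to 4 genes, with 3 probesets of FBP1, 2 of PGK1, 2 of ENO2 and 1 of EPAS1. All of them lay near background except the brightest probesets of PGK1 and EPAS1. The fainter PGK1 probeset counted here averaged only 1.51 (difference 2.29, SE 1.05). Probesets of 1 gene did not always point the same way. For PKM, the brightest probeset differed by 0.14 and the other by -0.04. Larger gaps were seen near background, with 0.11 on the brightest and -3.12 on the other probeset of FBP2. PCK1 had -0.01 on its brightest probeset and 1.24 and 2.71 on the others. For HIF1A, all 3 probesets had the lower mean in DFI < 100 tumors, with differences of -0.13, -0.32 and -0.37.

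The 26 listed genes above the reporter level had a median SD over the dogs of 0.75, against 0.51 over the 14518 probesets above that level. Their SD ran from 0.24 to 2.04, and 9 of them, among them PGAM1, P4HB, HIF1A and LDHA, lay below the 0.51 of all these probesets. This is a description of the list, and no test was made.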
